A study of Mus musculus with 8 samples.

Results

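RNA polymerase II (Pol II) was mapped by chromatin immunoprecipitation and sequencing (ChIP-seq) in mouse bone marrow-derived macrophages, before and 2 h after an inflammatory stimulus, and the order of Pol II sites by their height was compared between both times. Macrophages were grown from the marrow of female Fvb mice aged 6 to 8 weeks. The untreated library (0 h) came from cells without stimulus, and the 2 h library from cells given lipopolysaccharide (LPS), a molecule of the outer membrane of Gram-negative bacteria, and interferon gamma (IFN-gamma), a cytokine that activates macrophages. Both libraries were made from 100000000 cells each, and no genetic change is given in the labels for either. The series holds 8 libraries in all, 1 for each antibody and time, so no difference between times has a replicate check and no p-value is given. A further Pol II library (4 h), the demethylase Jmjd3 at 2 h, and the histone marks H3K4me3 and H3K27me3 at 0 and 4 h were used beside the pair. Of these, the Jmjd3 library was made from 500000000 cells and the others from 100000000 each.

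The measured value is the overlap count, the whole number of overlapping tags that the authors listed at each Pol II position. Each position was given 250 bp to each side, and positions of both lists that overlapped and were each other's nearest neighbour were joined into a pair. This gave 28433 pairs, which took in 51.1% of 55600 untreated positions and 50.8% of 55984 positions at 2 h. The 8 lists together held 364537 positions and clusters. From chromosomes 13 to 18 and X, 1216 positions at 2 h were left out because they lay beyond the last untreated position of their chromosome. The libraries have over 10000000 uniquely mapped tags each, per the labels, their exact depth is unknown, and counts were therefore turned into percentile ranks within their own list, from 0 (lowest) to 100 (highest). A rank places a site among the other sites of its library and does not measure the amount of Pol II.

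Pol II transcribes protein-coding genes. It gathers just after promoters, where it can pause, and is spread more thinly over the bodies of genes that are being transcribed. H3K4me3 marks promoters, H3K27me3 is the Polycomb mark of repressed genes, and Jmjd3 is an enzyme that removes H3K27me3 and whose gene is itself induced by LPS in macrophages. LPS and IFN-gamma both change transcription of many genes within hours. Sites are given by their position on mm8. Gene annotation was not used here, so the cell type was not checked against marker genes, and no sequence is shown.

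The same count stood for different ranks in the lists. A count of 10 had a rank of 21.5 in the untreated list and of 5.83 at 2 h, and a count of 100 had one of 98.2 untreated and of 90.4 at 2 h. The median count was 14 in untreated cells and 17 at 2 h, and the highest counts were 351 and 402. The lowest listed count was 9 in the untreated list, shared by 15.6% of its positions, and 10 at 2 h, shared by 11.7%. Low positions therefore carry coarse ranks.

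Tall Pol II sites were listed at both times far more often than low ones. Of the untreated positions with counts of 48 to 351, the upper end of the list, 93.4% (exact 95% binomial interval 92.8 to 94.1) had a partner at 2 h, against 25.5% (24.5 to 26.4) of those with the lowest count of 9. At 2 h, 92.2% (91.5 to 92.9) of positions with counts of 98 to 402 had an untreated partner, against 26.7% (25.6 to 27.8) of those with a count of 10. All intervals cover counting error only, since neighbouring positions are not independent and tags can be copies of one molecule. Of the 14214 untreated positions that ranked at 75 or above, 8993 (63.3%) did so at 2 h as well, 411 (2.89%) had a partner that ranked under 25 and 2125 (14.95%) had none. Of the 15223 that ranked under 25 before the stimulus, 373 (2.45%) ranked at 75 or above at 2 h.

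Partners lay close together. The median distance between the position at 0 h and its partner at 2 h was 56 bp, and 65.5% of partners were under 100 bp apart. Pairs inside an H3K4me3 cluster of untreated cells had a median distance of 39 bp, and pairs outside one 87 bp. Pairs of mean rank 90 or more had a median of 23 bp and those under 50 one of 96 bp, so the distance also moved with height. At 266 pairs the authors' position was the same base at both times.

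Ranks are centred by construction over each whole list, while the paired positions had median ranks of 69.0 and 68.0 at 0 and 2 h. Ranks do not measure overall change, so a median difference near 0 says nothing of it. The spread between sites is what the ranks can show. The median difference (2 h minus 0 h) was -0.57 percentile points, with the middle 50% of pairs between -13.4 and 11.4. A pair is called up-ranked here when its rank was at least 25 points higher at 2 h, and down-ranked when it was at least 25 points lower. Of the 28433 pairs, 3804 were up-ranked (13.4%) and 4112 were down-ranked (14.5%), and 45.2% differed by under 10 points. At the threshold itself, the 116 pairs with a difference of 25 to under 26 points had median counts of 14 and 42 at 0 and 2 h, and the 159 pairs with 24 to under 25 points had 13 and 31. On the other side, the 157 pairs just past -25 points had median counts of 21 and 16, and the 125 just short of it 15 and 13. A down-ranked pair near the threshold thus had a smaller difference in count than an up-ranked one, on lists whose counts differ in scale.

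**Figure D1:**
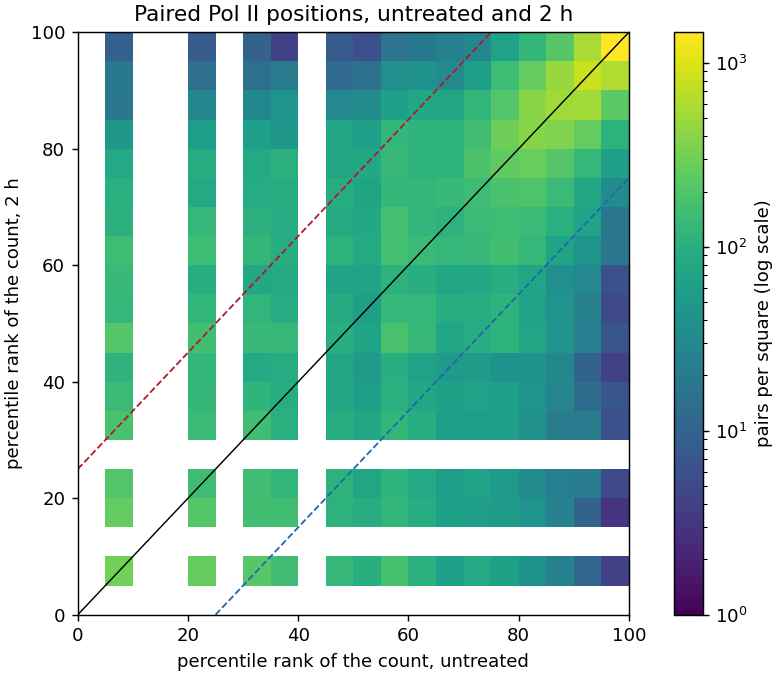
Pairs of Pol II positions by percentile rank of the count in the untreated list (x axis) and at 2 h (y axis), in squares of 5 points, with colour for the number of pairs on a log scale. The dashed lines mark 25 points of difference. The 4528 pairs of mean rank 90 or more lie close to the diagonal, pairs at lower ranks scatter widely around it, and the empty bands are ranks that no whole-number count takes.

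The counts limit what a rank difference can show at low sites. An untreated count of 14 has an exact 95% Poisson interval of 7.65 to 23.5, which covers ranks from 0 to 74.4 in that list, whereas a count of 50 covers ranks from 85.6 to 94.6. When the intervals of both counts, put on the rank scale of their own list, had to lie apart, 1320 pairs remained up-ranked (4.64% of all pairs) and 1270 down-ranked (4.47%). These are 34.7% and 30.9% of the pairs past 25 points. At a mean rank above 87.5 a difference of 25 points cannot occur, and none of the 4528 pairs of mean rank 90 or more had one. The middle 50% of these pairs differed by -2.81 to 2.30 points.

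The same was measured for the other Pol II times over the same chromosome spans. The middle 50% of rank differences spanned 24.8 points for 2 h against 0 h, 16.8 points for 4 h against 2 h (37587 pairs) and 23.5 points for 4 h against 0 h (31047 pairs). Up-ranked and down-ranked pairs made up 7.72% and 9.26% of the pairs between 2 and 4 h, and 12.0% and 14.7% of those between 0 and 4 h. The comparisons share libraries, and their difference has no test.

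At the top of the lists percentiles leave little room, so the tallest positions were also compared by their membership in lists of fixed length. Among the 100 tallest positions of each list, 28 were paired with each other. Among the 1000 tallest (counts of at least 100 untreated and 199 at 2 h) it was 390 (39.0%), and among the 5000 tallest 3035 (60.7%). Of the 610 positions among the 1000 tallest at 2 h alone, 500 had an untreated partner, with a median untreated rank of 94.8, and 110 had none. Of those 110, 28 lay under 1 kb from an untreated position and 57 lay 5 kb or more away. Of the 610 among the 1000 tallest in untreated cells alone, 569 had a partner at 2 h with a median rank of 95.5, and 41 had none.

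Jmjd3 and H3K4me3 were counted in these sets. A Jmjd3 peak overlapped 420 of the 610 sites in the 2 h top 1000 alone (68.9%, 65.0 to 72.5) and 281 of the 390 in both (72.1%, 67.3 to 76.5), against 154 of the 610 in the untreated top 1000 alone (25.2%, 21.8 to 28.9). H3K4me3 clusters of untreated cells held 502 of the sites in the 2 h top alone (82.3%, 79.0 to 85.2), and clusters at 4 h held 551 (90.3%, 87.7 to 92.6). For the sites in the untreated top alone these numbers were 553 at 0 h (90.7%) and 554 at 4 h (90.8%), and for the 390 in both they were 379 (97.2%) and 377 (96.7%). H3K27me3 of untreated cells overlapped 28 of the 610 sites in the 2 h top alone (4.59%) and 31 of the 610 in the untreated top alone (5.08%). Over all pairs, of any height, H3K27me3 of untreated cells overlapped 4.59% and Jmjd3 overlapped 10.1%. The sets of 610 also hold positions without a partner, and no set was matched to all pairs for height.

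The 10 most up-ranked pairs, taken at least 100 kb apart, all stood at the lowest untreated count of 9 and reached counts of 128 to 398 at 2 h. The first was at position 27042297 on chromosome 12, with counts of 9, 398 and 341 at 0, 2 and 4 h, and ranked 7.82 before the stimulus and 99.99 after it. It lay in an H3K4me3 cluster of untreated cells and at a Jmjd3 peak. Position 129232619 on chromosome 6 had counts of 9, 267 and 132. It lay 5.72 kb from the nearest untreated H3K4me3 cluster and 2.72 kb from a Jmjd3 peak. Position 73681109 on chromosome 14, in an H3K4me3 cluster with Jmjd3, had 9, 210 and 88. Next to it, the list of untreated cells held no position over 94.9 kb in which 58 were listed at 2 h and 10 at 4 h. Position 123631455 on chromosome 8 had 9, 198 and 75 and belonged to a run of 17 neighbouring pairs, of which 10 were up-ranked and 0 down-ranked. Position 20776007 on chromosome 9 had 9, 181 and 72, and position 124240506 on chromosome 4 had 9, 175 and 143.

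The other four had counts of 128 to 150 at 2 h. They were at 6805423 on chromosome 17, where the nearest Jmjd3 peak lay 440 kb away, at 35781603 (chromosome 16), at 127785235 (chromosome 3, with H3K4me3 and Jmjd3) and at 18690016 (chromosome 10). In 9 of the 10, which were chosen for their rise at 2 h, the rank at 4 h was below that at 2 h. The exception was the chromosome 10 position, with a rank of 93.8 at 2 h and 94.2 at 4 h. Of the 10, 5 lay in an untreated H3K4me3 cluster, 3 overlapped Jmjd3 and none overlapped H3K27me3 of untreated cells. The untreated and 2 h positions of these pairs lay 15 to 343 bp apart, farthest at 35781603 on chromosome 16.

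The 10 most down-ranked pairs all stood at the lowest 2 h count of 10, from untreated counts of 52 to 90. Position 122549259 on chromosome 6 had counts of 90, 10 and 80 at 0, 2 and 4 h. Its 2 h count was listed 470 bp away, at 122548789, near the limit that the 500 bp windows set for a pair. In the others of the 10, the untreated and 2 h positions lay 19 to 319 bp apart. Position 126182897 on chromosome 2 had 88, 10 and 43, and position 114864426 on chromosome 11 had 71, 10 and 20. Position 3856422 on chromosome 12 had 84, 10 and 11, and was still low at 4 h, with a rank of 5.11. Position 29990800 on chromosome 14 had 64, 10 and 40. Of the 10 pairs, 9 had a partner at 4 h, and in 8 of these the rank at 4 h was above that at 2 h. This follows from the choice of pairs at the lowest 2 h count. Any count at 4 h above the lowest listed there, 11, gave a higher rank. No Jmjd3 peak overlapped any of the 10, and 7 overlapped an untreated H3K4me3 cluster.

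**Figure D2:**
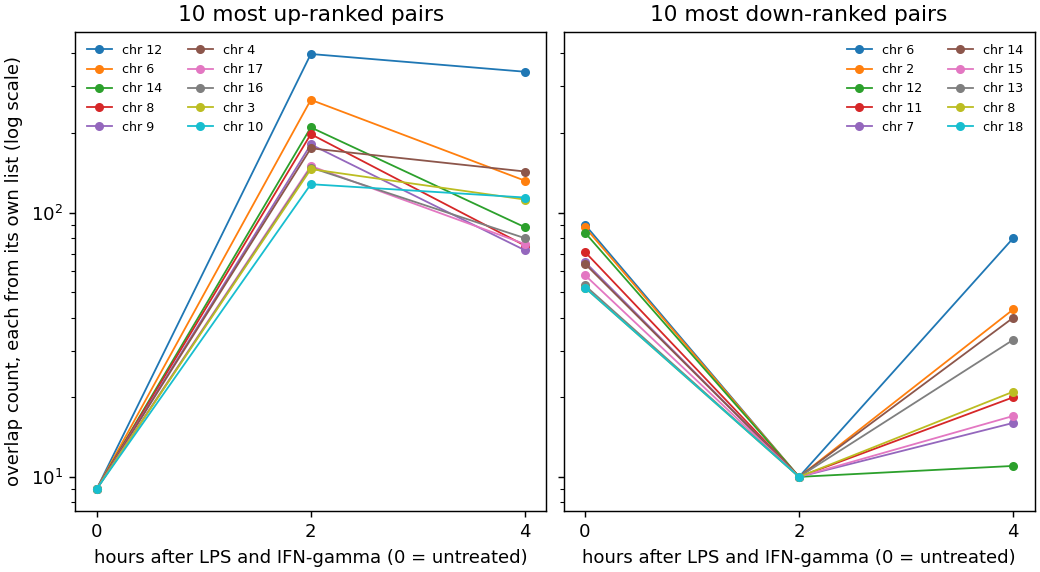
Overlap counts (y axis, log scale) of the 10 most up-ranked and the 10 most down-ranked pairs in untreated cells and at 2 and 4 h (x axis), 1 line per pair and 1 library per time, each count taken from its own list and not scaled to depth. The up-ranked pairs start at 9 and lie between 128 and 398 at 2 h. The down-ranked pairs lie at 10 at 2 h, the lowest count listed there. With 1 near its 2 h level, they lie higher at 4 h where listed, in a list whose counts start at 11.

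The 5 pairs of highest mean rank were chosen for high ranks at both times, so only their counts are described. Position 143171720 on chromosome 5 had counts of 321, 398 and 401 at 0, 2 and 4 h, and position 143167330, in the same run of pairs, had 302, 366 and 385. Position 96324994 on chromosome 3 had 351, 381 and 346. On chromosome 19, position 10049828 had 282, 393 and 396 and position 5845367 had 331, 373 and 393. All 5 lay in untreated H3K4me3 clusters, and 4 overlapped Jmjd3, the exception being the chromosome 3 position. Of the 4528 pairs of mean rank 90 or more, 4391 lay in such clusters and 1581 overlapped Jmjd3.

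The Pol II library at 4 h gave the rank of these sites 2 h later. Of the 3804 up-ranked pairs, 3265 (85.8%, 84.7 to 86.9) had a partner at 4 h, with median ranks of 21.5, 72.2 and 66.7 at 0, 2 and 4 h. The rank at 4 h lay nearer to that at 2 h than to the untreated one in 80.3% (78.9 to 81.6) of them. Of the 4112 down-ranked pairs, 2990 (72.7%, 71.3 to 74.1) had a partner at 4 h, with median ranks of 72.4, 24.6 and 51.3. The rank at 4 h lay nearer to that at 2 h in 49.3% (47.5 to 51.1) of these. Over all 28433 pairs, 84.5% had a partner at 4 h. Of those, 61.4% (60.8 to 62.0) had a rank at 4 h nearer to that at 2 h. Of the pairs whose count intervals lay apart, 1245 up-ranked and 1088 down-ranked ones had a partner at 4 h. Their rank at 4 h lay nearer to that at 2 h in 92.2% and 48.3%. Both sets were chosen for their rank difference at 2 h, whose part in the ranks at 4 h was not tested, and the difference between the sets has no test.

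Neighbouring pairs differed in the same direction. Over neighbours 0.5 to 1 kb apart, the correlation (Pearson's r) of their rank differences was 0.67 (2962 neighbours), and it was 0.50 at 2 to 5 kb (4746), 0.26 at 10 to 20 kb (2713) and 0.06 at 100 to 1000 kb (3148). Neighbours share their libraries, so these values describe the map and carry no p-value. Where both neighbours under 5 kb apart were past 25 points, 1954 of 2045 (95.6%, 94.6 to 96.4) were past it in the same direction. Among neighbours at 100 to 1000 kb this was 76 of 122 (62.3%, 53.1 to 70.9). The correlation was also present across the edge of H3K4me3 clusters, with 0.49 over 1769 neighbours under 5 kb apart of which 1 lay inside and 1 outside an untreated cluster.

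**Figure D3:**
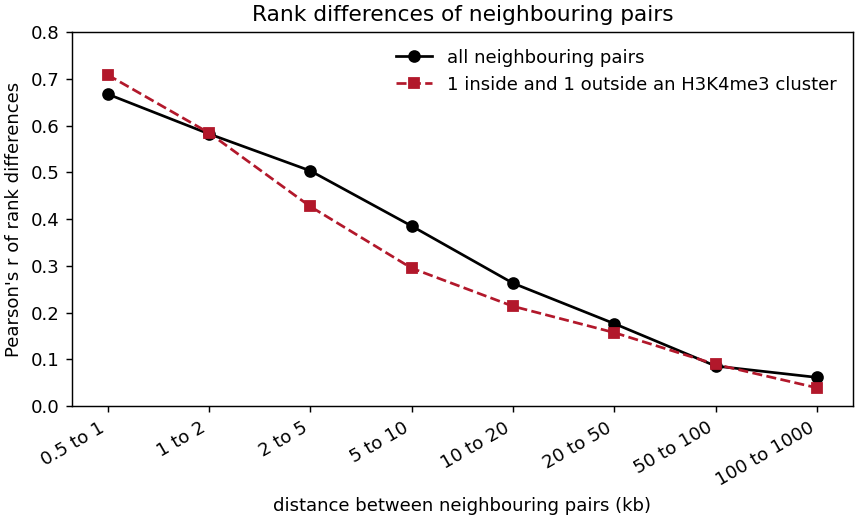
Pearson's r of the rank differences (2 h minus 0 h) of neighbouring pairs (y axis) by their distance in kb (x axis), for all neighbours (circles) and for those with 1 pair inside and 1 outside an untreated H3K4me3 cluster (squares). The correlation is 0.67 for the nearest neighbours and 0.06 at 100 to 1000 kb.

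Runs of pairs under 5 kb apart, called chains here, show the pattern along single loci. There were 1032 chains of at least 5 pairs, which held 34.3% of all pairs, with a median length of 11.8 kb. In 109 of them the median pair was at least 25 points higher at 2 h (10.6%) and in 97 at least 25 points lower (9.40%). Every pair was higher at 2 h in 127 chains and lower in 182. Jmjd3 lay in 48 of the 109 up-ranked chains (44.0%, 34.5 to 53.9) and 28 of the 97 down-ranked chains (28.9%, 20.1 to 39.0). In the other chains it was 345 of 826 (41.8%, 38.4 to 45.2). These intervals overlap, which does not show the shares to be equal, and their differences were not tested. The median chain ranks at 0, 2 and 4 h were 39.9, 76.2 and 72.5 for the up-ranked and 75.1, 36.9 and 58.7 for the down-ranked chains.

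The most up-ranked chain spanned 7858299 to 7873473 on chromosome 9. Its first 7 pairs had counts of 9 to 12 in untreated cells, 55 to 91 at 2 h and 41 to 75 at 4 h, and all 7 lay outside H3K4me3 clusters. Its last pair, in an untreated H3K4me3 cluster, had counts of 41, 241 and 163. The chain thus held 1 tall position at its H3K4me3 end before the stimulus, and at 2 h its whole length ranked above 80. A chain at 115172317 to 115177470 on chromosome 5 had 5 pairs with counts of 10 to 13 at 0 h and 35 to 84 at 2 h and no H3K4me3 cluster. A chain at 8619720 to 8627291 on chromosome X had counts of 9 to 12 and 34 to 67, with 4 of its 5 pairs in an untreated H3K4me3 cluster. Its 4 positions with a partner at 4 h had counts of 47 to 103 there.

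The most down-ranked chain spanned 122557617 to 122569972 on chromosome 6, near the most down-ranked single pair. Of its 6 pairs, 5 had untreated counts of 55 to 133 and 2 h counts of 10 to 14. The remaining pair had counts of 93, 99 and 121 at 0, 2 and 4 h. A chain at 98858377 to 98867882 on chromosome 15 had the same shape, with 1 pair at 141, 151 and 201 and the other four at 24 to 66 before and 11 to 19 after the stimulus. In a chain at 139836076 to 139843810 on chromosome 7, 1 pair had 122, 63 and 72, and the other four had untreated counts of 32 to 90 and 2 h counts of 10 to 15. In each of these 3 chains the pair that stayed highest lay in an untreated H3K4me3 cluster, but so did all pairs of the chains on chromosomes 6 and 7 and 2 of the other four on chromosome 15. The chain at 127849917 to 127858665 on chromosome 7 went the other way. Its pair outside H3K4me3 had counts of 48, 27 and 43, and its 4 pairs inside had 21 to 86 before and 10 to 14 after the stimulus. No such pair stood out in the chain at 61249917 to 61260192 on chromosome 18, where 6 pairs outside H3K4me3 had 27 to 68 and 11 to 16.

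**Figure D4:**
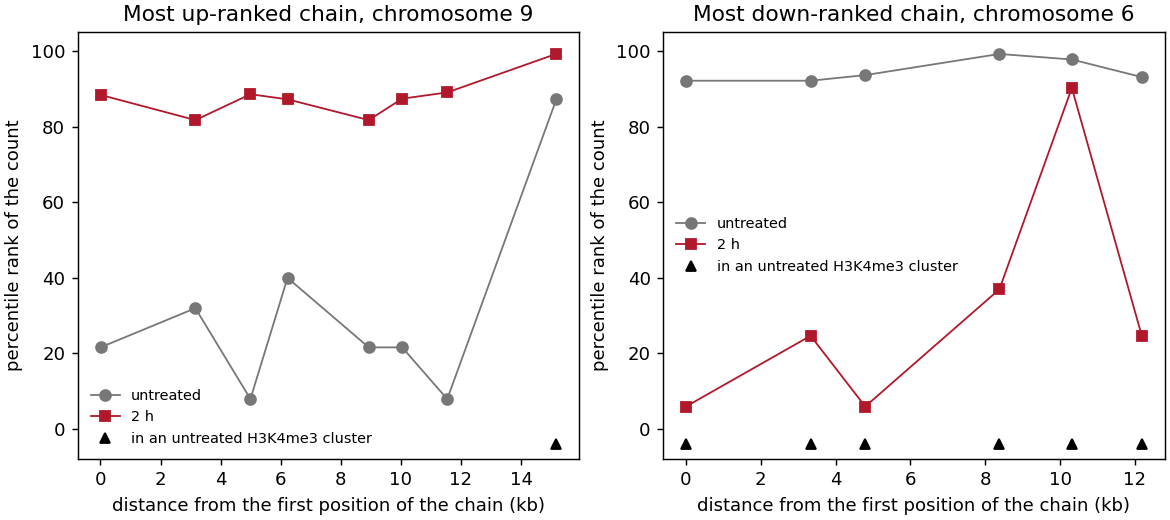
Percentile ranks of the counts (y axis) in untreated cells (circles) and at 2 h (squares) along the most up-ranked chain, on chromosome 9, and the most down-ranked chain, on chromosome 6, by distance in kb from the first position (x axis). Triangles mark pairs in an untreated H3K4me3 cluster. At 2 h all 8 pairs on chromosome 9 rank above 80, and 5 of the 6 on chromosome 6 rank under 40.

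Pairs inside and outside H3K4me3 clusters of untreated cells were compared next. Of the 28433 pairs, 15472 (54.4%) lay in an untreated H3K4me3 cluster, and 9.00% (8.56 to 9.47) of these were up-ranked and 9.18% (8.73 to 9.64) down-ranked, against 18.6% (17.9 to 19.3) and 20.8% (20.1 to 21.5) of the others. Pairs in clusters were taller, with median counts of 32 and 60 at 0 and 2 h against 13 and 17. At matched mean rank, in classes of 10 points, the difference in up-ranked pairs was 0.59 percentage points (95% Wald interval -0.097 to 1.28) and in down-ranked pairs -0.34 points (-1.05 to 0.37). The matched intervals include 0, but they pool all heights, and in wider classes of mean rank the differences ran in both directions. At mean ranks under 50, 25.8% of pairs in clusters and 22.3% of the others were up-ranked, and 29.2% and 24.7% down-ranked. At 50 to 75 it was 18.97% and 16.4% up-ranked, and 17.9% and 18.7% down-ranked. At 75 to 90 it was 2.23% and 4.75% up-ranked, and 2.13% and 4.85% down-ranked.

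Pairs with H3K4me3 at 1 time alone had unequal shares of both kinds. At the 544 pairs in a cluster at 4 h and in none at 0 h, 29.0% (25.3 to 33.1) were up-ranked and 13.4% (10.7 to 16.6) down-ranked. At the 798 pairs in a cluster at 0 h and in none at 4 h, 13.7% (11.4 to 16.2) were up-ranked and 26.1% (23.05 to 29.3) down-ranked. Pairs in clusters of both times numbered 14674, with 8.75% and 8.26%. By the distance of the untreated position itself from the nearest cluster, 15244 pairs lay inside one, and the class within 1 kb also holds pairs whose window reached into a cluster. The share of up-ranked pairs was 14.2% (11.9 to 16.7) within 1 kb, 20.99% (19.5 to 22.6) at 20 to 50 kb and 18.98% (16.9 to 21.2) beyond 50 kb. Down-ranked pairs made up 22.7% (19.9 to 25.6), 19.7% (18.2 to 21.2) and 15.8% (13.9 to 17.9). Among pairs of mean rank 50 to 75 alone, the up-ranked shares in these classes were 14.2% (10.5 to 18.5), 17.04% (14.6 to 19.7) and 12.7% (9.74 to 16.2), with no steady order by distance.

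The same was asked of whole H3K4me3 clusters, by the tallest Pol II position of each list in a cluster, whether paired or not. Of 20788 untreated clusters on the compared spans, 11469 (55.2%) held Pol II at both times, 1469 at 0 h alone and 1262 at 2 h alone. Among the 11469, 777 were up-ranked (6.77%) and 707 down-ranked (6.16%). H3K4me3 itself ranked higher at 4 h than at 0 h in 38.7% (35.1 to 42.4) of 703 up-ranked, 15.02% (12.2 to 18.2) of 586 down-ranked and 35.7% (34.8 to 36.7) of 9754 other clusters that had a cluster at 4 h. The median difference in H3K4me3 rank was -1.92, -7.01 and -2.32 points. The correlation of both differences over 11043 clusters was 0.16, and is given as a description. Of the 707 down-ranked clusters, 598 (84.6%) held Pol II at 4 h, with a median rank of 53.7 there. Of the up-ranked clusters it was 748 (96.3%), with a median rank of 71.7, and of those neither up-ranked nor down-ranked 9819 (98.3%), with 87.8. The 586 down-ranked clusters with H3K4me3 at both times had median ranks of 77.3 and 31.3 at 0 and 2 h.

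Jmjd3-bound pairs had a median rank difference of 2.42 points, and the others one of -1.34. Of the 2861 pairs at a Jmjd3 peak, 11.3% (10.2 to 12.5) were up-ranked and 1.29% (0.912 to 1.78) down-ranked, against 13.6% (13.2 to 14.04) and 15.9% (15.5 to 16.4) of the 25572 others. The first of these differences is -2.32 percentage points (Wald, -3.56 to -1.09), and its direction turned at matched mean rank, to 7.96 points (6.80 to 9.13). Jmjd3-bound pairs were tall, with median counts of 48 and 133 at 0 and 2 h against 18 and 24, and tall pairs have little room above them. The down-ranked difference was -14.6 points (-15.3 to -14.03), and -2.84 points (-3.28 to -2.40) at matched mean rank. The mean rank is taken over 0 and 2 h, the same ranks that give the difference. Matching on it is therefore not matching on height before the stimulus.

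Within each class of height below the top, the up-ranked share was higher with Jmjd3. At mean ranks under 50, 57.0% (48.0 to 65.7) of 128 Jmjd3-bound pairs and 22.6% (21.8 to 23.5) of 9288 others were up-ranked. At 50 to 75 it was 48.2% (43.0 to 53.5) of 365 and 16.2% (15.4 to 17.02) of 7980, and at 75 to 90 it was 9.40% (7.46 to 11.7) of 787 and 1.66% (1.34 to 2.04) of 5357. Down-ranked pairs made up 10.2%, 5.75% and 0.381% with Jmjd3, and 25.9%, 18.9% and 2.91% without. With the count intervals required to lie apart, 253 of the 2861 pairs with Jmjd3 (8.84%, 7.83 to 9.94) and 1067 of the 25572 without (4.17%, 3.93 to 4.42) were up-ranked. Down-ranked by this rule were 18 (0.629%, 0.373 to 0.993) and 1252 (4.90%, 4.63 to 5.17). Jmjd3 was mapped at 2 h alone, so these values do not tell whether it was at these sites before the stimulus.

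**Figure D5:**
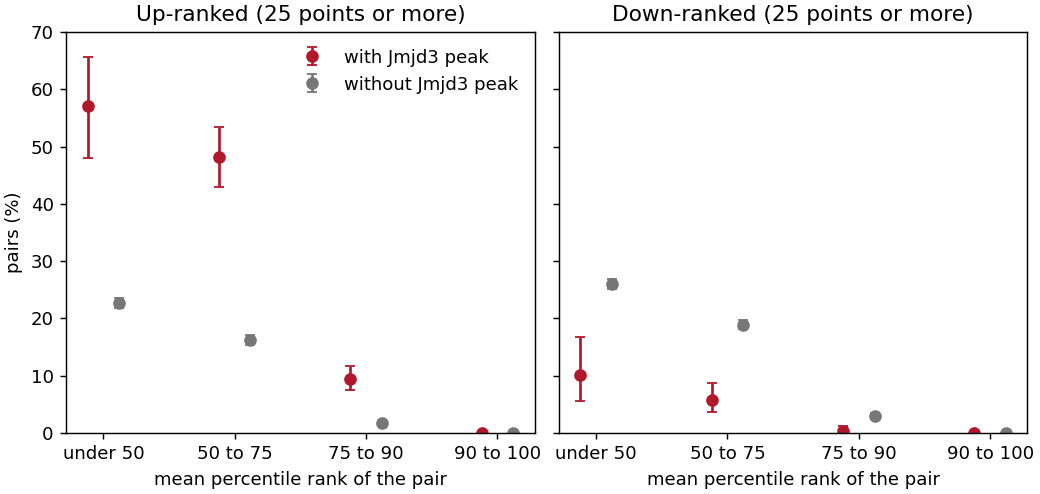
Share of pairs in percent (y axis) that were up-ranked (left) or down-ranked (right) at 2 h, with a Jmjd3 peak (red) and without (grey). The x axis is the mean of the pair's percentile ranks at 0 and 2 h. Bars are exact 95% binomial intervals. The up-ranked share with Jmjd3 is 57.0%, 48.2% and 9.40% in the 3 lower classes, against 22.6%, 16.2% and 1.66% without, and is 0 for all pairs of mean rank 90 or more.

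Between 2 and 4 h, Jmjd3-bound pairs had 0.855% (0.569 to 1.23) of 3274 up-ranked and 2.81% (2.27 to 3.44) down-ranked, and the other 34313 pairs had 8.37% and 9.87%. At 4 h against untreated cells these shares were 9.24% (8.20 to 10.4) and 1.69% (1.25 to 2.23) of 2846 pairs with Jmjd3, and 12.3% and 16.1% of 28201 without. These were not matched for height. These comparisons share libraries with that of 2 h against 0 h and are set side by side. At the 111 Jmjd3-bound pairs outside untreated H3K4me3 clusters, 32.4% (23.9 to 42.0) were up-ranked and 15.3% (9.18 to 23.4) down-ranked, with median counts of 17 and 31 at 0 and 2 h. Over all pairs outside these clusters the shares were 18.6% and 20.8%, with median counts of 13 and 17.

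Pairs with H3K27me3, the Polycomb mark, were counted in the same way. Of the 1305 pairs at an untreated H3K27me3 peak, 13.3% (11.5 to 15.2) were up-ranked and 6.44% (5.17 to 7.91) down-ranked, against 13.4% (12.98 to 13.8) and 14.8% (14.4 to 15.3) of the 27128 others. The difference in down-ranked pairs was -8.41 percentage points (Wald, -9.81 to -7.01), and -7.19 (-8.58 to -5.80) at matched mean rank. The difference in up-ranked pairs was -0.13 points (-2.01 to 1.76), an interval that includes 0. By time of the mark, the down-ranked share was 6.50% (5.03 to 8.24) of 969 pairs with H3K27me3 at 0 and 4 h. It was 6.25% (3.91 to 9.40) of 336 with the mark at 0 h alone, and 17.5% (13.2 to 22.6) of 268 with it at 4 h alone. The up-ranked shares were 13.3%, 13.1% and 12.3%. Median counts were 21 and 35 at pairs with untreated H3K27me3 and 20 and 28 at pairs without. Whole H3K4me3 clusters gave other shares. Of 1226 with untreated H3K27me3 and Pol II at both times, 12.9% (11.1 to 14.9) were up-ranked and 5.87% (4.62 to 7.34) down-ranked. Of the 10243 without it, these shares were 6.04% (5.59 to 6.52) and 6.20% (5.74 to 6.68). The clusters were not matched for height, and had median untreated ranks of 76.25 with H3K27me3 and 86.8 without.

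Positions without a partner were low, but not all were isolated. The 27167 unpaired untreated positions had a median count of 11 and the 27551 at 2 h one of 14. Of these, 19.9% and 18.4% lay under 1 kb from a position of the other list, and 31.0% and 30.5% lay 10 kb or more from one. Of the unpaired 2 h positions 13858 (50.3%) overlapped Pol II at 4 h, against 7345 (27.04%) of the unpaired untreated positions. A Jmjd3 peak overlapped 665 of the former (2.41%) and 160 of the latter (0.589%). The series of 2 h positions with no untreated position among them that held the most positions had 203 over 254 kb on chromosome 2, between 68663093 and 68917086, with 203 positions at 4 h as well.

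The shares were also taken by chromosome. Over the 20 nuclear chromosomes, the median rank difference ran from -1.98 to 1.62 points, the up-ranked share from 10.1 to 16.7% and the down-ranked share from 10.99 to 19.03%. Chromosome 1 had the highest median, with 16.6% (14.8 to 18.5) of its 1611 pairs up-ranked, and chromosome 8 had the lowest up-ranked share, 10.1% (8.63 to 11.7) of 1514 pairs. The down-ranked share was highest on chromosome 15, at 19.03% (16.7 to 21.6) of 1035 pairs, and lowest on X, at 10.99% (8.49 to 13.9) of 546.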

How the data were processed

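Each library was represented by 1 deposited list of peaks. The authors' value for a peak is a whole-number signal, the count of overlapping tags, and neither the file headers nor the labels mention scaling of it. The build is mm8 (submitters' processing notes). How tags were aligned and peaks called, at which threshold and against which control, is not given in the sources used here. Fragments of 200 to 300 bp were selected, per the labels' protocols.

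Ranks are mid-rank percentiles within the list after trimming. Pairs are mutual nearest positions whose 500 bp windows overlapped, and a mark was counted at a pair when it shared at least 1 bp with the span of both windows (single mark positions were also given 250 bp to each side). Matched differences weight the pairs without a mark, in 10 classes of mean rank, to the classes of the pairs with it. Shares have exact Clopper-Pearson intervals, differences of shares Wald intervals and counts exact Poisson intervals, all at 95%. With 1 library per group nothing was tested. Named positions are the 10 largest rank differences in each direction at least 100 kb apart, the 5 highest mean ranks, and the 5 chains with the largest median difference in each direction. The pairs, classes and thresholds were chosen with earlier results of these data known. Pairing and the rank difference were tested on simulated lists of isolated positions with known partners. The other steps were not simulated. The software was scipy 1.17.1, matplotlib 3.10.9, pandas 2.3.3 and numpy 2.4.6 under Python 3.11.15. Gene lists had been planned for an annotation on mm8; the RefSeq table is on GRCm38.p6 and was not used.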

Additional observations from a re-analysis of the deposited data

How the results depend on the processing

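Of 124 alternative values for 12 results, 82 stayed within the main interval or 1.5 times the main count, 30 moved and 12 changed sign. With a window of 100 bp to each side, the neighbour correlation was 0.559 and the H3K27me3 difference in up-ranked pairs 0.735 percentage points. With a threshold of 15 points, 6190 pairs were up-ranked and 6675 down-ranked, and with 40 points 1833 and 1923. With pairs of mean rank of at least 50 alone, 1631 were up-ranked and 1689 down-ranked, the median difference was -0.22 and the neighbour correlation 0.662. There the up-ranked differences were 0.667 points for Jmjd3 and -7.64 for H3K4me3, and the down-ranked ones -9.35 for Jmjd3, -9.81 for H3K4me3 and -5.97 for H3K27me3. With percentiles among the paired positions alone, the median difference was -0.325, the middle 50% spanned 27.4 points and the neighbour correlation was 0.654. There the up-ranked differences were 4.68 for Jmjd3, -4.60 for H3K4me3 and 0.686 for H3K27me3, and the down-ranked ones -12.4 for Jmjd3 and -6.47 for H3K4me3. At matched mean rank the up-ranked differences were 7.96 for Jmjd3, 0.592 for H3K4me3 and 0.866 for H3K27me3, and the down-ranked ones -2.84 for Jmjd3 and -0.342 for H3K4me3. On autosomes alone the up-ranked difference for H3K27me3 was 0.225. With neighbours 1 to 5 kb apart alone, the correlation was 0.546.

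The alternatives that follow, and the down-ranked H3K27me3 difference throughout, were chosen after seeing the data. With count intervals apart, 1320 pairs were up-ranked and 1270 down-ranked; up-ranked differences were 4.67 for Jmjd3, 0.365 for H3K4me3 and 0.515 for H3K27me3, and down-ranked ones -4.27, -0.838 and -3.48. Within untreated H3K4me3 clusters the Jmjd3 differences were 1.74 up-ranked and -10.3 down-ranked. With H3K4me3 clusters at 4 h, the H3K4me3 differences were -8.40 and -12.9. The cause of these changes was not tested. The number of pairs stayed between 19017 and 29974. No replicate could be left out, with 1 library per group, and the exact depth is unknown.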

Other observations

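Runs of at least 40 positions of one list between consecutive positions of the other numbered 41 without untreated positions and 11 without 2 h positions. On chromosome 7, between 74214291 and 74428279, 153 positions were listed at 2 h, 179 at 4 h and none in untreated cells. On chromosome 3, between 142332991 and 142638107, 90 were listed at 2 h, with counts of up to 264, and 84 at 4 h. Without 2 h positions, 75 untreated positions lay between 25100273 and 26671959 on chromosome 19, where 34 were listed at 4 h, and 64 lay between 31135774 and 32289837 on chromosome 9, where 4 were. These runs were chosen after their values were seen, and have no replicate check.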
